A study of Mus musculus with 18 samples.

Results

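The hippocampal comparison set 3 KO libraries against 3 WT libraries, 6 of the 18 libraries of the study, chosen by their tissue and genotype labels alone. The KO mice were Pcm1-/-, homozygous for a gene-trap insertion in Pcm1 carried in the germline, and the WT mice were their littermates. Both groups were adult and carried the strain label C57 Bl6J, and all tissue was collected on a single day. The line is 1 allele made in embryonic stem cells and backcrossed to C57BL/6J for at least 3 generations. How much stem cell DNA remained, around the insertion or on other chromosomes, was not measured here. In bulk tissue such as this, fewer cells of a type and less RNA per cell cannot be told apart.

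PCM1 is the scaffold of centriolar satellites, small granules around the centrosome that deliver proteins to the centriole and to the primary cilium. Most hippocampal neurons carry a primary cilium, a single antenna that concentrates adenylyl cyclase and receptors such as those for somatostatin and melanin-concentrating hormone. The hippocampus is built of a dentate gyrus of granule cells and of CA fields of pyramidal neurons, which lie beside the thalamus, the habenula, the fimbria and the choroid plexus of the ventricle.

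The hippocampus libraries held 24950537 to 32422309 counts on genes, and 86.8% to 89.1% of the reads entering the counting were assigned to a gene. Each genotype had 1 library with over 100 counts on Y-linked genes, replicate 2 in both. Each mouse gave tissue of every region, and the labels do not tie the libraries of different regions to individual mice. The frontal cortex and the striatum also had 1 such library in each genotype, so with 3 mice per genotype these libraries would be from the same mouse across regions, while the others cannot be linked. Lanes were 3, 4 and 5 in WT and 3, 3 and 5 in KO, so the groups share lanes 3 and 5. Counts of libraries of the same group differed by more than sampling noise (chi-square per degree of freedom from 7.78 to 55.4), and no library repeated another. Values below are CPM, which are counts scaled to a common library size with TMM factors, in the order of replicates 1, 2 and 3. The region medians of the next paragraph are CPM without TMM factors.

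The tissue label held against its dentate gyrus markers, and less evenly against those of the CA fields. All 3 defining markers of dentate granule cells, Prox1, Tdo2 and Dsp, were higher in each of the 6 hippocampus libraries than in any library of the other regions. The same was true of 2 of 3 markers for CA3, 1 of 3 for CA1 and 1 of 3 for CA2. The median of Prox1, the transcription factor of granule cells, was 154 CPM in the hippocampus, 13.9 CPM in the frontal cortex and 31.0 CPM in the striatum. Fibcd1, a marker of CA1 pyramidal neurons, had medians of 155, 9.32 and 20.1 CPM in the same order, and Iyd, a marker of CA3, had 4.80, 0.0863 and 0.170 CPM. The other CA1 markers were highest in the striatum, with medians in the same order of 193, 144 and 237 CPM for Wfs1 and 109, 66.3 and 127 CPM for Pou3f1. Pcp4, listed for CA2, was lowest in the hippocampus, at 67.5, 110.1 and 454 CPM. Markers of striatal spiny neurons were low, with a median for Rgs9 of 8.20 CPM in the hippocampus against 495.5 CPM in the striatum. Tissue from outside the hippocampus was nevertheless present. Tcf7l2, a transcription factor of thalamic and habenular neurons, had a hippocampal median of 50.8 CPM against 4.88 CPM in the frontal cortex. Ttr, the transthyretin gene that choroid plexus epithelium transcribes at very high levels, had a hippocampal median of 2200 CPM against 1.46 CPM in the frontal cortex.

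In the hippocampus Pcm1 fell, and Prag1 and Cers6 rose. Across 17545 genes tested with edgeR's quasi-likelihood test, these 3 had a Benjamini-Hochberg adjusted p under 0.05, a share of 0.0171%. At an unadjusted p under 0.05, 849 genes were higher in KO (4.84%) and 887 were lower (5.06%). The 3 KO libraries all lay above the 3 WT libraries for 1629 genes (9.28%) and all below for 1232 (7.02%). The median difference over all genes, as a log2 fold change of KO against WT, was -0.00033. The count of called genes depended on the tool: DESeq2 called 212 genes, the exact test of edgeR 115, and limma voom 3. Counts given below for lists of genes are at the unadjusted threshold and are to be read against the shares of 4.84% and 5.06%, since Cers6 was the only list member that passed the adjusted one. The shares over all genes differ when the fit is changed, so a list's count moves partly with them. Without a single library they were 3.19% higher and 3.03% lower (WT replicate 1), 6.69% and 7.67% (WT replicate 2), 4.26% and 4.62% (WT replicate 3), 2.08% and 2.78% (KO replicate 1), 4.00% and 4.33% (KO replicate 2), and 3.57% and 5.26% (KO replicate 3). With Y-linked counts as a covariate they were 7.69% and 8.44%. A covariate described below, the summed level of thalamus and habenula genes, was added after seeing the data. It differs between the genotypes itself, and the shares with it were 1.70% higher and 1.23% lower.

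Pcm1 checks the labels. It measured 146, 139.9 and 149.8 CPM in WT hippocampus and 11.9, 13.2 and 13.2 CPM in KO hippocampus. Every KO library lay far below every WT library, with a log2 fold change of -3.51 (SE 0.08) and an adjusted p of 2.34e-06 by edgeR's quasi-likelihood test. Pcm1 lies on chromosome 8 of GRCm38, from 41239752 to 41332344 on the plus strand. Counts per gene do not tell from which exons the remaining reads came.

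Prag1, a pseudokinase of the cell's signalling and actin machinery, measured 35.0, 34.5 and 29.8 CPM in WT and 71.6, 79.6 and 69.6 CPM in KO. The lowest KO library was well above the highest WT library. The log2 fold change was 1.15 (SE 0.09), with an adjusted p of 0.0188 by edgeR. The gene lies on the same chromosome as Pcm1, from 36094828 to 36147787 on the plus strand, with its centre 5.17 Mb from the centre of Pcm1. The frontal cortex gave Prag1 a log2 fold change of -0.07 (adjusted p = 0.808 by edgeR) and the striatum one of 0.37 (adjusted p = 0.221). Omitting WT replicate 1, 2 or 3 or KO replicate 1 removed the call, with adjusted p-values by edgeR of 0.161, 0.0813, 0.0629 and 0.145.

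Cers6, a ceramide synthase that attaches a palmitoyl chain to sphingoid bases, measured 66.2, 77.5 and 70.1 CPM in WT and 137, 145 and 129.8 CPM in KO. The KO libraries lay well above the WT libraries. The log2 fold change was 0.95 (SE 0.09), with an adjusted p of 0.0276 by edgeR, and the gene lies on chromosome 2, from 68861441 to 69114282 on the plus strand. Cers6 also rose in the frontal cortex (log2 fold change 0.90, adjusted p = 0.00233 by edgeR) and the striatum (0.78, adjusted p = 0.0178). The hippocampal call held when KO replicate 3 was omitted, and omission of any other library gave an adjusted p by edgeR from 0.0759 without WT replicate 2 to 0.225 without KO replicate 1. With the thalamus and habenula covariate Prag1 and Cers6 each had an adjusted p of 0.339 by edgeR and log2 fold changes of 1.03 and 0.77. With lane as a term within the hippocampus, where WT replicate 2 is alone in its lane and does not bear on genotype, the adjusted p-values by edgeR were 0.0785 for Prag1 and 0.0910 for Cers6. Among 23 tested genes of ceramide synthesis and fatty acid elongation, 5 were higher and 5 lower at an unadjusted p under 0.05, and the median was -0.09. The lower count was 1 without WT replicate 1 or KO replicate 2, 3 without WT replicate 3 and 2 without KO replicate 1, and the higher count was 3 without WT replicate 1 or KO replicate 2 and 2 without KO replicate 1. Under the thalamus and habenula covariate 2 were higher and 0 lower, and the median was 0.11, on the other side of 0. Cers4 measured 37.1, 33.6 and 29.4 CPM in WT and 41.3, 43.5 and 39.3 CPM in KO. The lower members Fa2h, Elovl1 and Cers2, with log2 fold changes of -0.62, -0.61 and -0.43, are enzymes that oligodendrocytes use to build myelin lipids, and they were highest in WT replicate 1, the library with the most myelin RNA.

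Below the adjusted threshold, the genes of next smallest p on the higher side were Gm6969, Chrm1, Cacng8, Chrm3, Pcdh1 and Maco1. Chrm1, the main muscarinic acetylcholine receptor of the forebrain, measured 265, 304 and 266 CPM in WT and 455, 493 and 413 CPM in KO (log2 fold change 0.70, adjusted p = 0.278 by edgeR). Cacng8, the hippocampus-enriched auxiliary subunit of AMPA receptors, measured 133, 169.9 and 143 CPM in WT and 246, 240.0 and 233 CPM in KO (0.69, adjusted p = 0.287 by edgeR). Chrm3, another muscarinic receptor, had 35.2, 39.9 and 41.7 CPM in WT and 61.3, 58.8 and 54.9 CPM in KO (0.58, adjusted p = 0.287 by edgeR). For all of these the KO libraries lay above the WT libraries without overlap. Pcdh1, a protocadherin outside the clusters, had a log2 fold change of 0.54, and Maco1, a membrane protein of the endoplasmic reticulum in neurons, one of 0.50. The largest higher fold changes among genes of an average log2 CPM of at least 1, an unadjusted p under 0.01 and no overlap were, beside Gm6969, Prag1 and Cers6, those of Glp2r (1.34), AI429214 (0.91), Chrm4 (0.91), Sstr4 (0.88) and Egr2 (0.88). Glp2r and Sstr4 encode peptide receptors, and their adjusted p-values by edgeR were both 0.391.

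Gm6969, a processed pseudogene on chromosome 12, had 1, 4 and 4 counts in the WT libraries and 148, 298 and 147 counts in the KO libraries, with an adjusted p of 0.0546 by edgeR. Gm5345, a processed pseudogene on chromosome 8, had 18, 19 and 20 counts in WT and 3, 2 and 2 counts in KO (adjusted p = 0.170 by edgeR). Reads with more than 1 possible position had been dropped, and pseudogenes share sequence with their parent genes, so the values of both are uncertain.

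**Figure D1:**
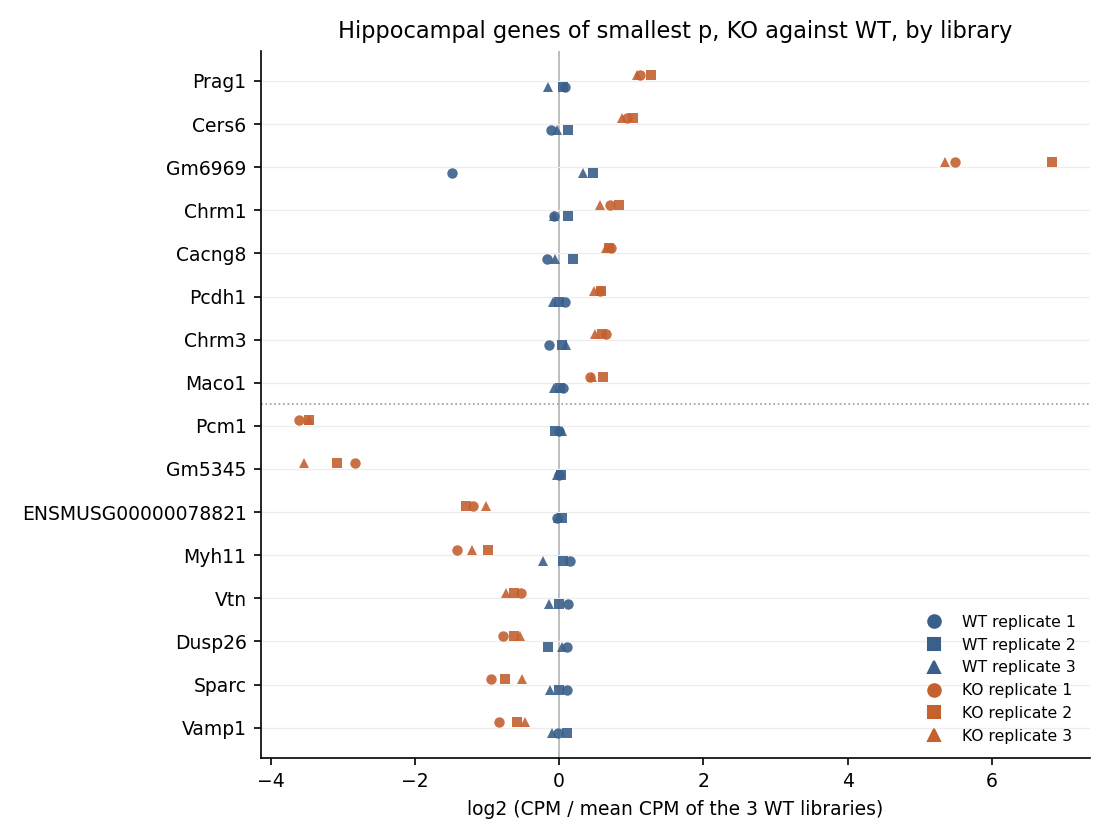
The 8 higher and 8 lower genes of smallest p in the hippocampus. The x axis is log2 of the CPM in a library over the mean CPM of the 3 WT libraries, and each point is 1 library, coloured by genotype and shaped by replicate. Pcm1 sits at about -3.5 in all KO libraries, Prag1 and Cers6 near 1, and the groups do not overlap for any gene shown.

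On the lower side the genes of smallest p, after Pcm1 and Gm5345, were ENSMUSG00000078821, Myh11, Vtn, Dusp26, Sparc and Vamp1. Myh11, the smooth muscle myosin heavy chain, measured 9.78, 9.18 and 7.56 CPM in WT and 3.32, 4.46 and 3.81 CPM in KO (log2 fold change -1.20, adjusted p = 0.278 by edgeR). Vtn, which encodes vitronectin and marks pericytes in brain, measured 66.2, 60.6 and 54.8 CPM in WT and 42.1, 39.1 and 36.4 CPM in KO (-0.63, adjusted p = 0.287 by edgeR). Sparc, a matrix-binding secreted protein of glia and endothelium, had 447, 413 and 380 CPM in WT and 214, 246 and 289 CPM in KO (-0.73, adjusted p = 0.383 by edgeR). In Myh11, Vtn and Sparc WT replicate 2 lay between the other WT libraries and well above KO. Vamp1, a vesicle SNARE of fast-firing neurons, had a log2 fold change of -0.62, and Dusp26, a neuronal phosphatase, one of -0.64. The gene ENSMUSG00000078821, which had no symbol in the annotation, measured 4.65, 4.86 and 4.68 CPM in WT and 2.06, 1.93 and 2.35 CPM in KO.

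The largest lower fold changes under the same conditions (average log2 CPM of at least 1, unadjusted p under 0.01, no overlap) were, after Pcm1, those of Pou4f1, Irx1, Tnnt1, Etnppl, Hcn4, Nexn and Vipr2. Pou4f1, a transcription factor of the medial habenula, measured 0.512, 2.20 and 22.6 CPM in WT and 0.399, 0.126 and 0.487 CPM in KO, so that a single WT library carried most of its difference. Tnnt1, a troponin that thalamic neurons also transcribe, measured 29.8, 9.14 and 15.0 CPM in WT and 1.66, 1.26 and 7.47 CPM in KO. Etnppl, an enzyme of phospholipid turnover in astrocytes, measured 31.1, 15.1 and 31.5 CPM in WT and 3.56, 2.98 and 12.3 CPM in KO. Hcn4, a pacemaker channel that is high in thalamus, measured 9.62, 3.83 and 9.57 CPM in WT and 1.26, 1.35 and 3.38 CPM in KO. In each of these, KO replicate 3 was the highest KO library, and WT replicates 1 and 3, or 1 of them, exceeded WT replicate 2.

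Among markers of tissue next to the hippocampus, the summed thalamus and habenula genes were also highest among KO in replicate 3 and lowest among WT in replicate 2. All 16 tested genes of thalamus and habenula were lower on average in KO, 13 of them at an unadjusted p under 0.05, with a median log2 fold change of -1.77. Summed over the list, these genes reached 916, 392 and 942 CPM in the WT libraries and 234, 212 and 466 CPM in the KO libraries. WT replicates 1 and 3 were high, WT replicate 2 was below KO replicate 3, and the groups overlapped. Among the 4 libraries without Y-linked expression, and between the 2 with it, WT lay above KO. Tcf7l2 measured 111, 48.9 and 109.6 CPM in WT and 6.85, 6.81 and 51.9 CPM in KO. Prkcd, a kinase of thalamic relay neurons, measured 182, 58.4 and 137 CPM in WT and 44.6, 34.2 and 85.9 CPM in KO. Lef1, the third defining marker, was lower in every KO library than in any WT library, at 27.5, 13.1 and 19.0 CPM in WT and 4.85, 6.01 and 9.17 CPM in KO. Slc17a6, the vesicular glutamate transporter of thalamic neurons, had a log2 fold change of -1.49. Of the 16 genes, 5 passed the unadjusted threshold without WT replicate 3 (median -1.20), 5 without KO replicate 1, 7 without WT replicate 1 and 8 without KO replicate 2. With their own summed level as the covariate 1 was lower.

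Choroid plexus carry-over varied between libraries more than between genotypes. The 31 choroid plexus genes summed to 9874, 3847 and 3700 CPM in WT and 3906, 566 and 6790 CPM in KO, a range of 11.99-fold within KO and of 2.67-fold within WT. WT replicate 1 was the highest library and KO replicate 2 the lowest, and the groups overlapped. Ttr measured 5975, 2190 and 2031 CPM in WT and 2200, 164 and 3906 CPM in KO. All 8 defining markers (Ttr, Folr1, Clic6, Kcnj13, Kl, Otx2, Sostdc1 and Tmem72) had a log2 fold change below 0, and so did all 31 genes of the list, with a median of -0.56, but 0 of them reached an unadjusted p under 0.05. None of the defining markers was at 0 in a library. Without WT replicate 1 the median was -0.01, without KO replicate 2 it was -0.08, and without KO replicate 3 it was -1.33 with 3 genes lower. It was 0.58 with the thalamus and habenula covariate, on the other side of 0, with 0 genes past the threshold. With the summed level of the list as a covariate, Pcm1, Prag1 and Cers6 remained called among 4 genes, and the thalamus and habenula genes kept a median of -1.39 with 14 of 16 lower. Under the same covariate the medians of several other lists lay nearer 0. Myelin genes were lower for 7 (median -0.40), the medians were -0.15 for microglia, -0.16 for gliosis, 0.0077 for MHC class I and interferon genes, -0.24 for meninges and 0.11 for interneurons, and cholesterol synthesis genes were higher for 3. Over all genes the shares with this covariate were 3.52% higher and 3.75% lower.

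Ependymal cells, which line the ventricle beside the choroid plexus and carry motile cilia, had sums that overlapped between the genotypes. Their 41 genes summed to 262, 148 and 272 CPM in WT and 256, 140.2 and 263 CPM in KO, with replicate 2 low in both groups. The median log2 fold change was -0.04, and 1 gene, the axonemal dynein Dnah9, was higher at an unadjusted p under 0.05, and 0 were lower. Omission of single libraries gave medians from -0.25 to 0.20, and with the thalamus and habenula covariate the median was 0.86 with 4 higher and 0 lower. Foxj1, the transcription factor of motile ciliogenesis, measured 39.1, 14.6 and 29.8 CPM in WT and 25.5, 10.5 and 30.7 CPM in KO. Of 22 genes of meninges and perivascular fibroblasts 4 were lower, with a median of -0.51 and sums of 713, 433 and 377 CPM in WT and 327, 209 and 400.2 CPM in KO. That count was 1 without WT replicate 1, 7 without WT replicate 2 and 2 without KO replicate 2, and it was 1 with the thalamus and habenula covariate, where the median was 0.06.

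**Figure D2:**
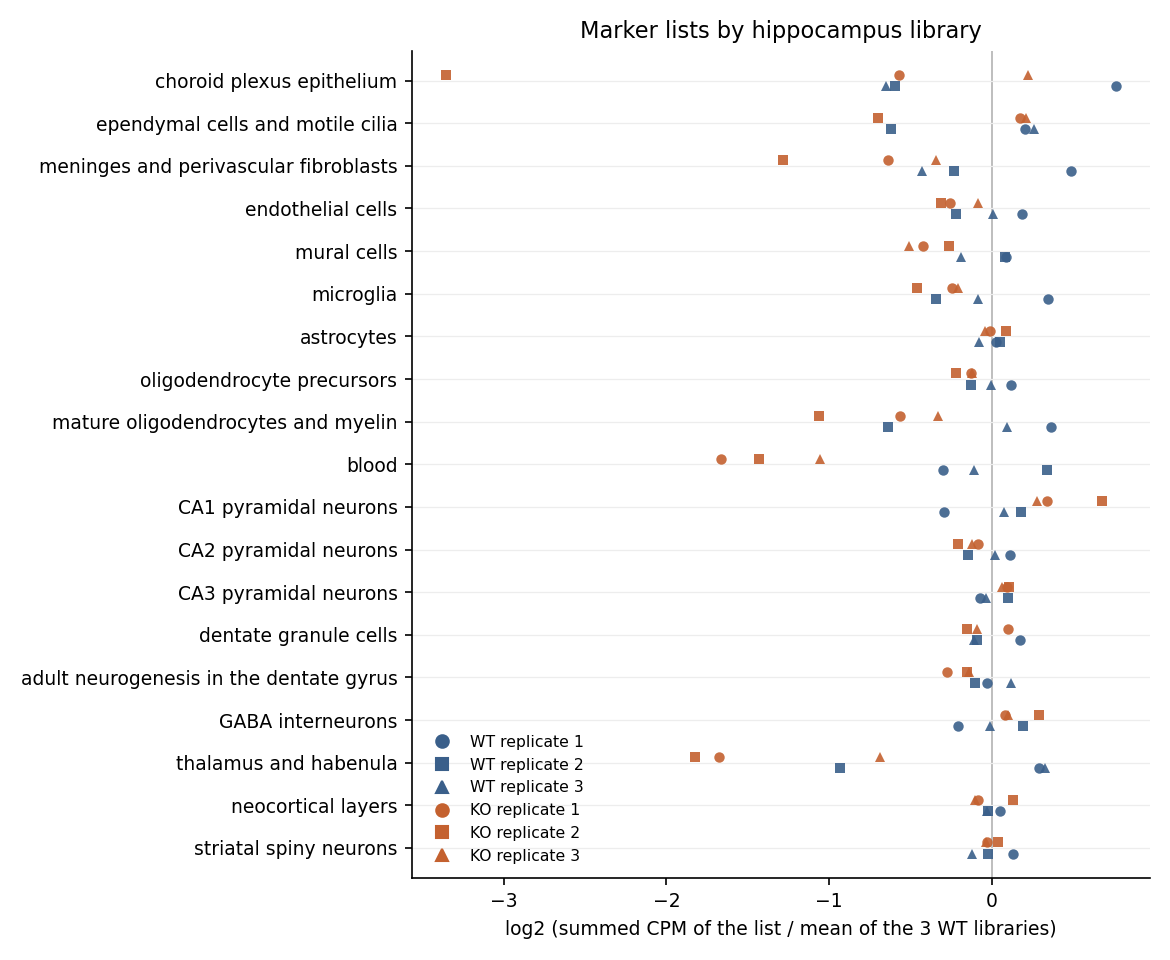
Summed CPM of 19 lists of cell type and tissue markers in the 6 hippocampus libraries. The x axis is log2 of a library's sum over the mean of the 3 WT sums, and each point is 1 library. Choroid plexus and thalamus and habenula spread widely within both genotypes, while blood, mural cells, adult neurogenesis and CA1 pyramidal neurons show groups that do not overlap.

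Myelin genes were lower in KO by an amount that depended on the library. None of the 22 tested genes of mature oligodendrocytes and myelin had a log2 fold change above 0, 11 were lower at an unadjusted p under 0.05, and the median was -0.63. Their sums were 12575, 6281 and 10395 CPM in WT and 6584, 4667 and 7742 CPM in KO. WT replicate 2 lay inside the KO range, and WT replicates 1 and 3, which also held the most thalamic RNA, lay above it. WT replicate 2 and KO replicate 2, the libraries with Y-linked counts, were the lowest of their groups, and among the other 4 libraries WT and KO did not overlap. With Y-linked counts as a covariate 21 of the 22 genes were lower and the median was -0.61. Mbp, the myelin basic protein gene, measured 4226, 1987 and 3046 CPM in WT and 1830, 1489 and 2235 CPM in KO (log2 fold change -0.74, adjusted p = 0.455 by edgeR). Apod, an apolipoprotein of oligodendrocytes and perivascular cells, measured 643, 176 and 378 CPM in WT and 156, 115 and 215 CPM in KO. Without WT replicate 1 only 2 genes were lower and the median was -0.39. The count was 3 without KO replicate 2, 5 without WT replicate 3 and 18 without WT replicate 2. Markers of oligodendrocyte precursors were lower for 4 and higher for 1 of 15 genes, the lower among them Olig2 (log2 fold change -0.60) and Olig1 (-0.46), while Pdgfra, the receptor that defines precursors, measured 59.6, 59.9 and 67.7 CPM in WT and 65.3, 63.5 and 64.4 CPM in KO. With the thalamus and habenula covariate 0 myelin genes were lower or higher, and the median was 0.10, on the other side of 0, while precursor markers were lower for 1 and higher for 1 (median 0.05, against -0.11 without it).

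Mural cell genes had a median below 0 in KO whichever library was left out, and 0 of them passed the adjusted threshold. Of 14 mural cell genes, which mark pericytes and smooth muscle, 7 were lower and 0 higher, with a median log2 fold change of -0.40. Their sums did not overlap between groups, at 275, 274 and 227 CPM in WT and 193, 216 and 182 CPM in KO. Acta2, smooth muscle actin, measured 14.1, 19.7 and 9.74 CPM in WT and 8.21, 7.77 and 7.44 CPM in KO (log2 fold change -0.89, adjusted p = 0.397 by edgeR). The pericyte genes Pdgfrb, Rgs5 and Kcnj8 had log2 fold changes of -0.19, -0.23 and 0.09, and the lower members were the smooth muscle genes Myh11, Acta2, Tagln, Cnn1 and Myl9, the receptor Notch3, and Vtn. Omission of single libraries gave medians from -0.50 to -0.30 and 6 to 8 lower genes. Endothelial genes were lower for 6 of 21, with a median of -0.31. The count was 11 without WT replicate 2, 4 without KO replicate 1 and 4 without WT replicate 1, where the median was -0.14. Pecam1, an adhesion protein of the endothelium, measured 31.2, 22.4 and 23.8 CPM in WT and 15.6, 21.4 and 16.1 CPM in KO, and Cldn5, the tight junction claudin of the barrier, 25.9, 16.1 and 16.3 CPM in WT and 14.0, 14.8 and 13.6 CPM in KO. With the thalamus and habenula covariate 7 mural genes were lower (median -0.47), and 0 endothelial genes were lower and 1 higher (median 0.02).

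Blood RNA stood lower in KO in every library. Hbb-bs, an adult beta globin, measured 81.5, 129 and 76.3 CPM in WT and 21.7, 38.0 and 41.8 CPM in KO (log2 fold change -1.50, adjusted p = 0.391 by edgeR). Alas2, the first enzyme of heme synthesis in red cells, measured 4.85, 8.88 and 6.48 CPM in WT and 1.496, 2.65 and 3.41 CPM in KO. Of 7 blood genes tested, 5 were lower, the median was -1.50, and the sums were 142, 221 and 162 CPM in WT and 55.2, 65.0 and 84.1 CPM in KO. The same list had a median of -1.29 in the frontal cortex and of -1.02 in the striatal comparison. Globin genes have near-identical copies, which the counting of reads with 1 position could split.

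Immune and reactive glial genes had medians below 0, which depended on single libraries and on the fit. Of 22 microglial genes, 4 were lower (median -0.30), and the sums were 1317, 817 and 976 CPM in WT and 876, 755 and 898 CPM in KO. P2ry12, the purinergic receptor of resting microglia, had a log2 fold change of -0.04, and Csf1r, the receptor for their survival factor, one of -0.27. The microglial count was 0 without WT replicate 1 (median -0.09), 13 without WT replicate 2, 1 without KO replicate 1 or 3, and 2 without KO replicate 2. Of 36 genes of reactive gliosis and complement 5 were lower, with a median of -0.40. That count was 1 without WT replicate 1 (median -0.02), 14 without WT replicate 2, and 3 without KO replicate 1 or 2. MHC class I and interferon genes were lower for 2 of 44, with a median of -0.24, which was 0.10 without WT replicate 1, and 6 were lower without WT replicate 2. With the thalamus and habenula covariate the medians were above 0, at 0.07 for microglia, 0.26 for gliosis and 0.31 for MHC class I and interferon genes, and 0 genes of any of these lists were lower. With Y-linked counts as a covariate 12 microglial, 13 gliosis and 4 MHC class I and interferon genes were lower. Medians in the frontal cortex were -0.25, -0.15 and -0.07 for the 3 lists in that order. In the striatum they were -0.37, -0.43 and -0.32. Astrocyte genes were lower for 5 of 22 (median -0.13; 3 without WT replicate 1 or KO replicate 3, 2 without KO replicate 1, 1 with that covariate), with Aqp4, the water channel of astrocyte endfeet, at 351, 260 and 288 CPM in WT and 208, 207 and 235 CPM in KO, and Agt, angiotensinogen, at 55.9, 50.6 and 60.9 CPM in WT and 23.4, 24.2 and 36.1 CPM in KO. Slc1a3, a glutamate transporter of astrocytes, had a log2 fold change of 0.03 and Gja1, their connexin, one of 0.11.

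Among the neurons, CA1 markers were higher in KO, and those of the other fields had no common direction. Of 13 CA1 genes, 12 had a log2 fold change above 0 and 6 were higher at an unadjusted p under 0.05, with a median of 0.40. Their sums did not overlap, at 757, 1048 and 975 CPM in WT and 1174, 1486 and 1126 CPM in KO, and KO replicate 2 was the highest. Wfs1, an endoplasmic reticulum protein that marks CA1, measured 178, 143 and 179.8 CPM in WT and 205, 242 and 196 CPM in KO (log2 fold change 0.36, adjusted p = 0.433 by edgeR). Pou3f1, a transcription factor of CA1 and upper cortex, measured 80.4, 100.4 and 101 CPM in WT and 125, 136 and 110.3 CPM in KO. Fibcd1, of the 3 defining CA1 markers the most restricted to the hippocampus, measured 93.4, 150.4 and 144 CPM in WT and 164, 189 and 156 CPM in KO, with an adjusted p of 0.511. Gpr161, a ciliary receptor that restrains Hedgehog signalling, belonged to the same list, with 20.3, 33.3 and 27.9 CPM in WT and 37.2, 55.3 and 39.9 CPM in KO. The CA1 count ran from 5 to 8 when single libraries were omitted. It was 1 with the thalamus and habenula covariate (median 0.11).

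CA2 genes were higher for 2 and lower for 1 of 10 (median -0.07). Rgs14, a signalling scaffold of CA2, had a log2 fold change of 0.35, while Pcp4, a calmodulin regulator that thalamic neurons also carry, had one of -1.01, with 149, 72.6 and 101.5 CPM in WT and 43.7, 55.4 and 61.4 CPM in KO. CA3 genes were higher for 1 and lower for 1 of 14 (median 0.06), and dentate granule cell genes higher for 3 and lower for 0 of 16 (median -0.03). These counts rested on single libraries. Without KO replicate 1 the dentate list had 1 higher and 1 lower with a median of -0.17, and the CA2 list 0 higher. The CA3 list had 0 either way without WT replicate 1 or 3 or KO replicate 1. Under the thalamus and habenula covariate the higher and lower counts were 0 and 0 for the dentate list (median 0.07), 0 and 0 for CA3 (-0.03) and 1 and 0 for CA2 (0.22). Prox1 measured 205, 139 and 153 CPM in WT and 161, 128 and 147 CPM in KO, within the spread of the libraries. In the list of adult neurogenesis 0 of 18 genes passed the threshold either way (median 0.04), although the sums, at 434, 412 and 482 CPM in WT and 366, 398 and 402 CPM in KO, did not overlap. Without KO replicate 3, 3 of its genes were lower, and under the thalamus and habenula covariate 3 were higher. Dcx, the microtubule protein of newborn neurons, measured 7.06, 10.4 and 10.5 CPM in WT and 10.8, 12.1 and 10.8 CPM in KO (adjusted p = 0.629 by edgeR). Striatal spiny neuron genes, carried in trace amounts, were higher for 1 and lower for 2 of 16. Omission of single libraries gave 1 to 4 lower, and the thalamus and habenula covariate left 1 higher and 0 lower. Drd1 measured 7.96, 6.22 and 7.21 CPM in WT and 12.7, 11.3 and 9.78 CPM in KO, and Drd2 5.24, 4.06 and 4.58 CPM in WT and 2.76, 3.70 and 2.65 CPM in KO, with adjusted p-values by edgeR of 0.391 and 0.426. Neocortical layer genes were higher for 2 and lower for 6 of 17 (median -0.04). Without KO replicate 1 or 2 they were higher for 0 and lower for 5, with medians of -0.21 and -0.25, and with the thalamus and habenula covariate higher for 0 and lower for 1 (median -0.22).

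GABA interneuron genes had members on both sides. Of 22, 6 were higher and 2 lower, with a median of 0.31. Sst, the somatostatin gene of dendrite-targeting interneurons, measured 94.1, 128 and 104 CPM in WT and 142, 209 and 134 CPM in KO (log2 fold change 0.58), and Cort, a related peptide, had a log2 fold change of 0.62. The homeobox genes of the interneuron lineage Dlx1 and Dlx2 had log2 fold changes of 0.43 and 0.53. Pvalb, the calcium buffer of fast-spiking interneurons, went the other way, at 41.3, 34.1 and 33.3 CPM in WT and 26.1, 30.8 and 28.7 CPM in KO (-0.34). The general markers Gad1, Gad2 and Slc32a1 had log2 fold changes of 0.07, -0.17 and 0.01. Without KO replicate 2 the median of the list was 0.14, without WT replicate 2 the count of higher genes was 10, and with the thalamus and habenula covariate 0 genes passed either way and the median was -0.01.

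Genes that neurons switch on with activity were higher in KO. Of 40 immediate early genes, 19 were higher at an unadjusted p under 0.05 and 0 lower, 35 had a log2 fold change above 0, and the median was 0.32. Their sums did not overlap, at 2110, 1914 and 2377 CPM in WT and 2745, 2851 and 2426 CPM in KO, though KO replicate 3 exceeded WT replicate 3 by little. Egr4, a zinc finger factor induced by synaptic input, measured 23.4, 23.1 and 33.6 CPM in WT and 50.7, 42.1 and 44.9 CPM in KO (log2 fold change 0.78, adjusted p = 0.391 by edgeR). Junb, a subunit of AP-1, measured 76.8, 66.3 and 78.4 CPM in WT and 100.5, 124 and 95.5 CPM in KO. Bdnf, the activity-regulated neurotrophin, measured 58.2, 54.0 and 63.4 CPM in WT and 102, 79.3 and 75.9 CPM in KO.

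Fosl2, another AP-1 subunit, and the synaptic scaffold Homer1 had log2 fold changes of 0.55 and 0.36, also without overlap. Nr4a1 and Nr4a3, nuclear receptors of the immediate early class, had 0.65 and 0.32. Fos, the best known of the class, measured 23.9, 15.2 and 23.2 CPM in WT and 26.1, 30.8 and 26.4 CPM in KO. Arc, which encodes a protein that travels to active synapses, measured 230.1, 157 and 191 CPM in WT and 248, 349 and 224 CPM in KO, where KO replicate 3 lay below WT replicate 1. Npas4, the neuron-specific member, measured 17.97, 7.93 and 9.71 CPM in WT and 14.3, 17.6 and 15.3 CPM in KO, with overlapping groups. When single libraries were omitted, 13 to 21 genes were higher and the median ran from 0.24 to 0.38. Without WT replicate 2, 2 genes were lower. In the fit with the thalamus and habenula covariate 7 were higher and 0 lower, with a median of 0.39. In the frontal cortex the list had a median of 0.17, and in the striatum one of 0.24.

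Promoters are shown for 5 of the higher immediate early genes that have a single start in RefSeq. They were taken in order of p, but not every chromosome was considered, so a gene of smaller p may be absent. Promoters were examined because cyclic AMP response elements before the start are the textbook route by which activity reaches this class. Sequences are the 250 bases before the RefSeq start, on the coding strand, from GRCm38.p6: Egr4 at chr6:85513590-85513839 on the minus strand, Fosl2 at chr5:32136222-32136471 on the plus strand, Junb at chr8:84978749-84978998 on the minus strand, Nr4a3 at chr4:48045055-48045304 on the plus strand, Nr4a1 at chr15:101266596-101266845 on the plus strand. Capitals mark TGACG, the core of the element, on either strand (CGTCA when on the other).
Egr4: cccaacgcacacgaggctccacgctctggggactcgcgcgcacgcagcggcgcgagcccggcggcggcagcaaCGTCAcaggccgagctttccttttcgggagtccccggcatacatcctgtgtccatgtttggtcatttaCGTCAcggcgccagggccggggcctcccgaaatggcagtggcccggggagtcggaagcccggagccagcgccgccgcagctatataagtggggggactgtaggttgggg
Fosl2: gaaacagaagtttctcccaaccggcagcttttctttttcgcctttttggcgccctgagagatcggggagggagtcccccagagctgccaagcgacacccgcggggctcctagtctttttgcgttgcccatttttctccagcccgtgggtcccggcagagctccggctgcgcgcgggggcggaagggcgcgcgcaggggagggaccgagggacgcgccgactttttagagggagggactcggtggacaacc
Junb: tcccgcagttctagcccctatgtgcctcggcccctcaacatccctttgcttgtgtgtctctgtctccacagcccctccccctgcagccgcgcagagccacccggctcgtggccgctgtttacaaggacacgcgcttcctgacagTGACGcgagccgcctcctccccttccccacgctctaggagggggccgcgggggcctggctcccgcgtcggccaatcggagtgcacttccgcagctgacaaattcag
Nr4a3: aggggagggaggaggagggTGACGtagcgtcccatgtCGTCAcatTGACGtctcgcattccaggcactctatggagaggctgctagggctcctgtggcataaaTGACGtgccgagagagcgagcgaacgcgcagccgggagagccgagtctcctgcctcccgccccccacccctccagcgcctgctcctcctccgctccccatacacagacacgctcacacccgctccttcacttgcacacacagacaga
Nr4a1: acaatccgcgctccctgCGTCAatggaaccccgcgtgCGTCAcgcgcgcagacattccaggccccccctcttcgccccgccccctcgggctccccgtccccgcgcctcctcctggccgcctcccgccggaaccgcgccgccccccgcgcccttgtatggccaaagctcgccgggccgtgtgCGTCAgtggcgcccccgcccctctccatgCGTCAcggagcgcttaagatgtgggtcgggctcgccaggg
Nr4a3 and Nr4a1 each held 4 core sites, Egr4 2, Junb 1 and Fosl2 0. Of the 33 immediate early genes with a promoter in the table, 25 held the core site in at least 1 promoter, against 19.8% of all genes, and 17.8% of all 32851 promoters of the same length held it. The share was 13 of 17 among genes higher in KO and 12 of 16 among the others. The full site TGACGTCA, which contains the core on both strands, was found for 4 of the 33 genes, against 1.77% of all genes. It was found for 1 of 17 genes higher in KO and 3 of 16 others. A CArG box was found for 2 of 17 genes higher in KO and 0 of 16 others, against 1.62% of all genes. A match of letters describes the window only.

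**Figure D3:**
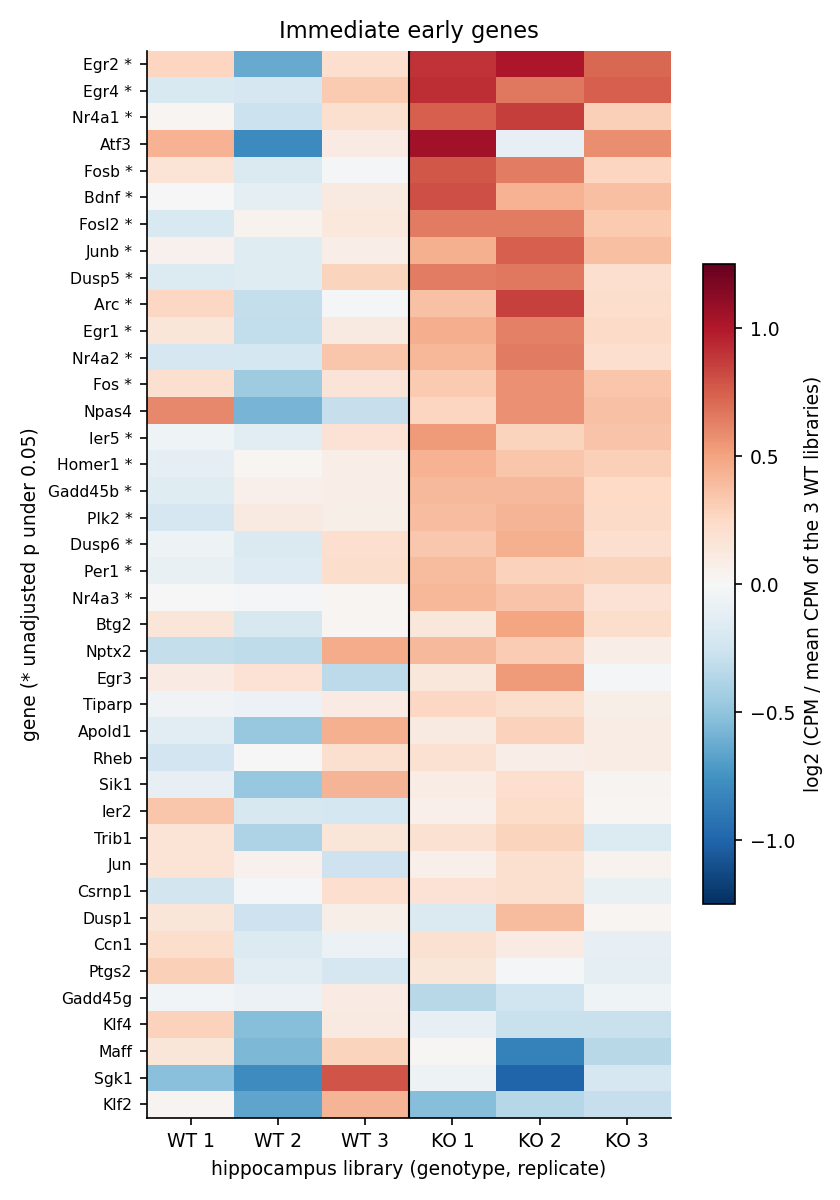
Immediate early genes by library. Each row is 1 of 40 genes, ordered by log2 fold change, each column 1 hippocampus library, and colour gives log2 of CPM over the mean CPM of the 3 WT libraries. Asterisks mark the 19 genes at an unadjusted p under 0.05. Over the whole list all 3 KO columns are redder than all 3 WT columns in 16 of 40 genes, against 9.28% of all genes tested.

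Protocadherins, adhesion proteins that give neurons surface identities, were higher in KO too. Of 36 tested, 17 were higher and 2 lower, with a median of 0.31. Their sums were 2308, 2398 and 2299 CPM in WT and 2924, 2918 and 2831 CPM in KO, with a wide gap between groups that were each narrow. Pcdh1 measured 416, 393 and 372 CPM in WT and 584, 586 and 550 CPM in KO. Pcdhb9, of the beta cluster, measured 21.7, 24.8 and 25.2 CPM in WT and 34.5, 28.5 and 32.1 CPM in KO (log2 fold change 0.41, adjusted p = 0.392 by edgeR), and Pcdh20 and Pcdh19 had log2 fold changes of 0.32 and 0.36. The lower members were Pcdh11x (-0.36) and Pcdh18 (-0.42). Members of the clusters share exons and near-identical sequence, so reads could be split between them. Without KO replicate 1 the count of higher members was 8, and with the thalamus and habenula covariate it was 5 (median 0.20). The frontal cortex had 21 higher and 0 lower, and the striatum 11 and 0.

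Ion channel genes differed in both directions. Of 90 potassium channel genes, 21 were higher and 7 lower, with a median of 0.03 and sums that did not overlap (5962, 6096 and 5736 CPM in WT, 6352, 6614 and 6180 CPM in KO). Under the thalamus and habenula covariate 7 were higher and 2 lower. The lower count was 2 without KO replicate 1 and 4 without WT replicate 3, and the higher count ran from 16 to 26 when single libraries were omitted. Kcnj4, an inward rectifier of forebrain neurons, measured 52.2, 68.0 and 68.6 CPM in WT and 122, 92.3 and 98.8 CPM in KO (log2 fold change 0.73, adjusted p = 0.391 by edgeR). Kcnt2, Kcnj6 and Kcna4, which carry sodium-activated, G protein-gated and A-type currents, had log2 fold changes of 0.42, 0.43 and 0.40. The lower members included Hcn4, Kcng4 and Kcnip1, the latter pair highest in WT replicate 3, and Kcnj10, the glial channel that buffers potassium, at 432, 306 and 312 CPM in WT and 248, 265 and 267 CPM in KO. Of 39 voltage-gated sodium and calcium channel genes 5 were higher and 5 lower, among them Cacna2d3 (0.48) and Cacna1g (-0.55), the latter a T-type channel of thalamic relay neurons. The higher count was 3 without KO replicate 1, and under the thalamus and habenula covariate 2 were higher and 0 lower.

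Synaptic lists had members on both sides. Synaptic vesicle and release genes were higher for 8 and lower for 6 of 62 (median 0.08), and 16 were higher without WT replicate 2 and 5 without KO replicate 1. Omission of single libraries gave medians from 0.03 to 0.12. With the thalamus and habenula covariate 0 were higher and 3 lower, with a median of -0.11. Slc17a7, the vesicular glutamate transporter of cortical and hippocampal neurons, measured 1338, 1765 and 1359 CPM in WT and 2026, 2216 and 1872 CPM in KO (log2 fold change 0.45), while Rims3, Unc13c and Vamp1, with log2 fold changes of -1.09, -1.09 and -0.62, were lower. Postsynaptic density genes were higher for 8 and lower for 4 of 43 (median 0.10). The higher count was 12 without WT replicate 2 and 5 without WT replicate 1 or 3 or KO replicate 1 or 2, the median was -0.0013 without WT replicate 3 and 0.02 without KO replicate 2, and with the thalamus and habenula covariate it was -0.08, with 1 gene higher and 1 lower. Members included Nlgn3, a neuroligin, at 0.32 and Camk2n2, an inhibitor of the kinase CaMKII, at -0.47. Neuropeptide precursors were higher for 6 and lower for 3 of 30 (10 higher without KO replicate 3, 3 without WT replicate 1), with Vgf, a granin-like precursor, at 164, 159 and 166 CPM in WT and 197, 231 and 189 CPM in KO. The lower count of that list was 0 without KO replicate 1 or 2 and 1 without WT replicate 1 or 3 or KO replicate 3, and the thalamus and habenula covariate left 0 genes either way (median 0.01). Tac2, the neurokinin B gene of the medial habenula, was high in WT replicate 3 alone, at 2.84, 2.65 and 25.7 CPM in WT and 2.23, 3.11 and 1.98 CPM in KO.

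**Figure D4:**
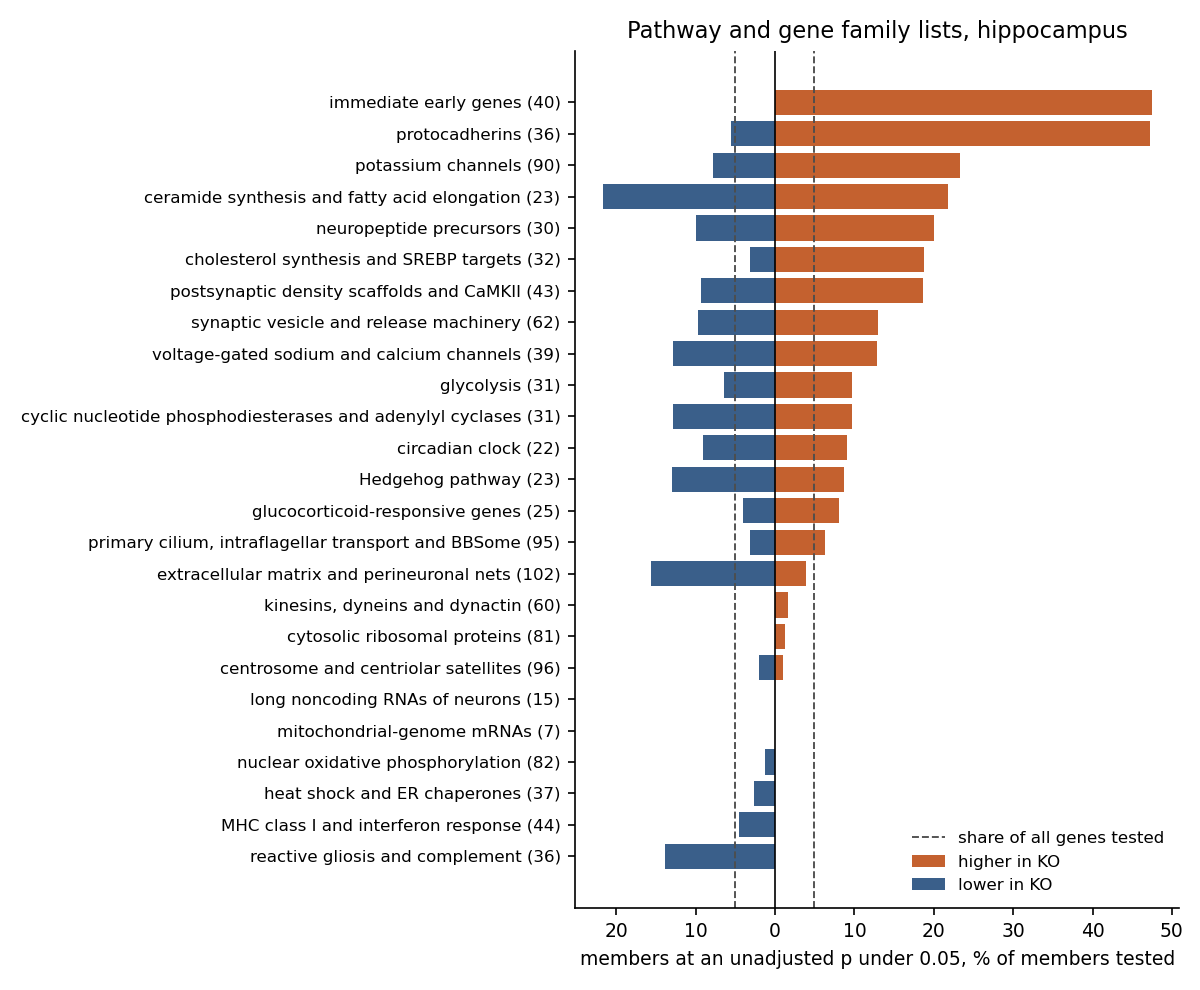
Share of members at an unadjusted p under 0.05 in 25 pathway and gene family lists, higher in KO to the right and lower to the left, as a percentage of the members tested (number in brackets). Dashed lines are the shares of all genes, 4.84% higher and 5.06% lower. Immediate early genes and protocadherins lie farthest to the right, and centrosome, ribosomal and oxidative phosphorylation genes stay within the lines.

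In the compartment that PCM1 serves, centrosome genes passed the threshold at shares below those of all genes. Primary cilium genes did so only on the lower side. Of 96 centrosome and centriolar satellite genes, Pcm1 left out, 1 was higher and 2 were lower (1.04% and 2.08%), with a median of -0.01 and sums of 3438, 3464 and 3339 CPM in WT and 3359, 3521 and 3369 CPM in KO. They were Ninl (log2 fold change 0.52), Ccp110, a cap protein of centrioles (-0.39), and Nde1 (-0.43). The lower count was 6 without WT replicate 2 and 8 with Y-linked counts as a covariate. Of 95 genes of the primary cilium, intraflagellar transport and the BBSome, 6 were higher (6.32%) and 3 lower (3.16%), with a median of -0.02. When single libraries were omitted 3 to 8 were higher and 1 to 4 lower, with 3 higher without KO replicate 1 or 2, and the thalamus and habenula covariate left 2 higher and 0 lower. The higher members included the ciliary signalling genes Sstr3, at 32.6, 38.0 and 32.4 CPM in WT and 45.3, 51.7 and 42.9 CPM in KO, and Adcy3, at 34.2, 41.6 and 39.3 CPM in WT and 44.0, 49.0 and 45.6 CPM in KO. Mchr1 had a log2 fold change of 0.46 with overlapping groups, and Arl13b, the GTPase of the ciliary membrane, one of -0.03. Adjusted p-values by edgeR for these 4 ran from 0.391 to 0.952. The Hedgehog targets Gli1 and Ptch1 had log2 fold changes of -0.80 and -0.20, with Gli1 at 2.29, 2.20 and 1.66 CPM in WT and 1.30, 1.09 and 1.13 CPM in KO. The Hedgehog list as a whole was higher for 2 and lower for 3 of 23, with a median of -0.16. Without KO replicate 3, 6 were lower, omission of single libraries gave medians from -0.23 to -0.06, and under the thalamus and habenula covariate 1 was lower and the median was 0.03. Kinesins, dyneins and dynactin subunits were higher for 1 and lower for 0 of 60 (4 lower without WT replicate 2).

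Extracellular matrix genes were lower more often than higher, 16 against 4 of 102, with a median of -0.24. Tnc, the tenascin of glia, measured 9.81, 5.16 and 6.73 CPM in WT and 2.79, 2.31 and 4.17 CPM in KO, and Col15a1, a vascular collagen, 4.38, 2.85 and 3.43 CPM in WT and 2.19, 2.14 and 2.25 CPM in KO. The higher members included the perineuronal net proteins Tnr (log2 fold change 0.28) and Ncan (0.27). The sums did not overlap, from 4369 to 5023 CPM in WT and 3936 to 4358 CPM in KO. The count of lower genes was 8 without WT replicate 1, 9 without KO replicate 1, 10 without KO replicate 2, 24 without WT replicate 2, and 3 with the thalamus and habenula covariate (median 0.01).

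Oxidative phosphorylation, ribosomal protein and chaperone genes had few members past the threshold. Of 82 nuclear oxidative phosphorylation genes 0 were higher and 1 lower, of 81 cytosolic ribosomal protein genes 1 and 0, and of 37 heat shock and chaperone genes 0 and 1, with all 3 medians between -0.04 and 0.04. Without KO replicate 2 the ribosomal list had 5 higher and 3 lower and oxidative phosphorylation 4 lower, and without WT replicate 1 the chaperone list had 2 higher. The glycolysis and cholesterol lists held higher members at a share above that of all genes. Of 31 glycolysis genes 3 were higher (9.68%) and 2 lower (6.45%), with a median of 0.04. When single libraries were omitted 2 to 5 were higher and 0 to 3 lower, with medians from 0.01 to 0.09. Genes of cholesterol synthesis were higher for 6 (18.8%) and lower for 1 of 32 (median 0.15), but their sums overlapped and the count ran from 1 without KO replicate 1 to 14 without WT replicate 2. In the fit with the thalamus and habenula covariate 1 was higher and the median was -0.0092, on the other side of 0. The 7 mitochondrial-genome mRNAs tested summed to 66072, 40084 and 27373 CPM in WT and 24056, 48738 and 24414 CPM in KO, so that libraries of 1 genotype differed 2.41-fold and 2.03-fold, and 0 passed the threshold, although all 7 were lower at it without KO replicate 2. Circadian clock genes were higher for 2 and lower for 2 of 22 (9.09% each; 0 higher without WT replicate 1 or KO replicate 1), glucocorticoid-responsive genes 2 and 1 of 25 (9 lower without WT replicate 2), cyclic nucleotide enzymes 3 (9.68%) and 4 (12.9%) of 31, and neuronal long noncoding RNAs 0 and 0 of 15 (4 lower without KO replicate 2). The thalamus and habenula covariate left 0 glycolysis genes past the threshold either way, 3 circadian genes higher and 0 lower, and 1 cyclic nucleotide enzyme higher and 2 lower. Omission of single libraries gave 1 to 4 cyclic nucleotide enzymes higher and 2 to 5 lower.

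Genes close to Pcm1 passed the unadjusted threshold more often than genes elsewhere. Within 10 Mb of Pcm1, 79 genes were tested, of which 6 were higher and 10 lower, 20.3% in all against 9.83% on the other chromosomes. The shares were 11.8% between 10 and 20 Mb, 9.09% between 20 and 40 Mb and 10.5% beyond. Beside Prag1 and Gm5345, Dctd, an enzyme of deoxynucleotide metabolism, measured 4.22, 4.59 and 3.43 CPM in WT and 1.60, 2.23 and 1.68 CPM in KO (log2 fold change -1.16, adjusted p = 0.391 by edgeR). Slc7a2, a cationic amino acid transporter less than 10 Mb from Pcm1, measured 48.5, 41.5 and 42.2 CPM in WT and 33.2, 27.2 and 29.7 CPM in KO. Gsr, glutathione reductase, was higher, at 31.5, 31.6 and 33.7 CPM in WT and 40.05, 49.5 and 47.8 CPM in KO. Fgl1, the neighbouring fibrinogen-like gene, had 12, 3 and 12 counts in WT and 0 counts in every KO library, which puts it at least 3.25-fold lower when each KO library is set to 3 counts. For Dctd, Slc7a2 and Gsr the frontal cortex gave log2 fold changes of -1.36, -0.57 and 0.54, and the striatum gave -1.10, -0.55 and 0.18. The regions came from the same mice, so these values are not independent of each other.

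**Figure D5:**
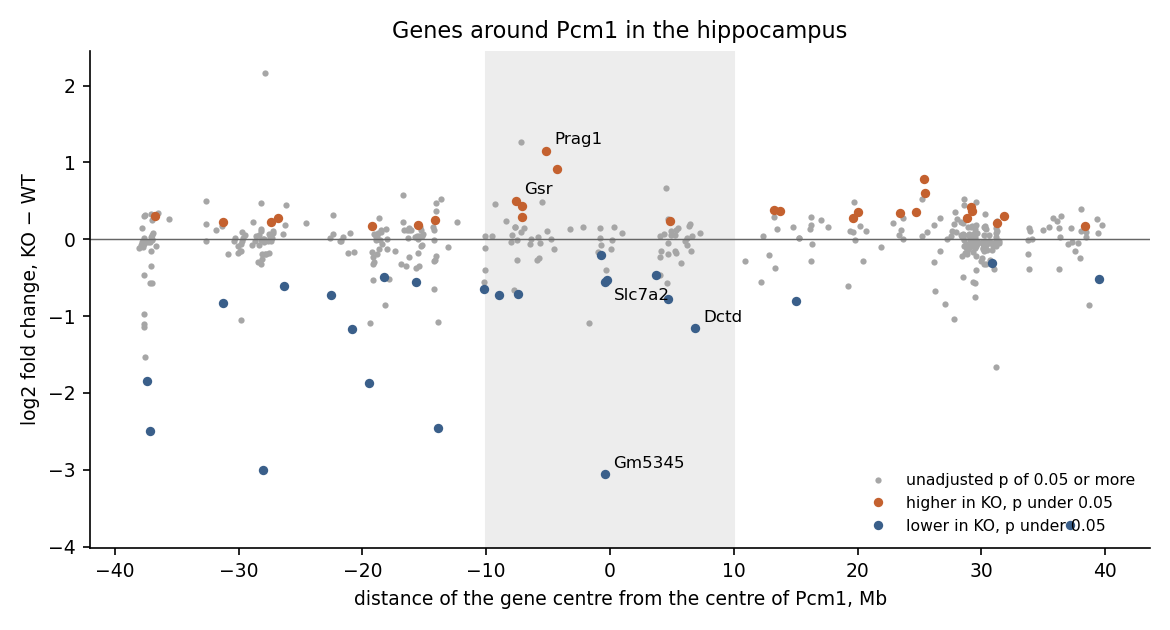
Log2 fold change of KO against WT in the hippocampus by distance of the gene centre from the centre of Pcm1, in Mb. Each point is 1 of 453 genes within 40 Mb that had reads in both genotypes, orange or blue where the unadjusted p is under 0.05, and the grey band is 10 Mb to either side. In the band 15 of the 77 points are coloured, and 2 further genes, 1 of them Fgl1 at an unadjusted p under 0.05, are left out for having no read in 1 genotype or in both.

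A fit of all 18 libraries asked which genotype effects differed between the hippocampus and the mean of the other regions. The 18 libraries came from 6 mice, and the fit treats them as independent, although those with Y-linked counts would be 1 mouse of each genotype across the regions. The labels do not link the libraries. Prag1 alone passed, 1 of 17545 genes (0.0057%), with a difference of 1.02 in log2 fold change (SE 0.15, adjusted p = 0.0490 by edgeR). The difference was 1.24 against the frontal cortex alone (adjusted p = 0.0260 by edgeR), 0.81 against the striatum alone (0.282) and 0.95 with lane as a covariate (0.158). Omission of single hippocampus libraries gave differences from 0.95 to 1.07, with adjusted p-values by edgeR of 0.0115 without KO replicate 3, 0.0255 without WT replicate 2, 0.0503 without WT replicate 1, and 0.171 to 0.191 without WT replicate 3, KO replicate 1 or KO replicate 2. The next 4 genes by p, Slc8a3, Plxdc1, Grm4 and Gm13544, had differences of -0.61, -0.90, -1.32 and -3.66, each with an adjusted p of 0.167 by edgeR. Grm4, a metabotropic glutamate receptor, measured 33.2, 19.4 and 30.0 CPM in WT hippocampus and 10.5, 10.3 and 18.2 CPM in KO, without overlap. As in the summed thalamic genes, WT replicate 2 was the lowest WT library and KO replicate 3 the highest KO library. Gm13544 is annotated as an antisense RNA and had at most 0.276 CPM in a hippocampus library, and the strand setting of the counting was not given in the sources used here, so its value is uncertain. At an unadjusted p under 0.05, 846 genes differed in this contrast.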

How the data were processed

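RNA from dissected hippocampus was sequenced from stranded mRNA libraries (KAPA). As deposited, the values are raw counts per Ensembl gene, which the authors made by trimming reads with Trim Galore and cutadapt, aligning to GRCm38 with STAR, keeping uniquely mapped reads and counting with HTSeq. The strand setting of HTSeq and the tool versions were not given in the sources used here, so antisense and overlapping genes are uncertain. Reads on no gene or on several genes (10.88% to 13.21% of the reads counted in the hippocampus) were left out of library sizes and tests. Groups came from the labels. Gene symbols were matched by Ensembl ID to the GENCODE annotation of GRCm38, and promoters were taken from RefSeq.

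The 17545 genes with at least 10 counts in any of the 18 libraries were tested with edgeR 4.0.16 (R 4.3.3), using TMM factors, a quasi-likelihood test over the 6 hippocampus libraries and Benjamini-Hochberg adjustment. The SE of a log2 fold change was its absolute value over the root of F. The interaction test used all 18 libraries. DESeq2 1.42.0 and limma 3.58.1 were alternatives. The procedure was tested on simulated counts. The study states that each of 3 mice per genotype gave all regions, and the labels do not link libraries to mice, so the interaction test took libraries of different regions as independent, although Y-linked counts would link 1 library per genotype and region.

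Named genes were those called, the 8 of smallest p and the 8 of largest fold in each direction (average log2 CPM of at least 1, unadjusted p under 0.01, no overlap), up to 4 list members of smallest p in each direction with defining markers, the 5 of smallest p in the interaction, the 6 of smallest p within 10 Mb of Pcm1, and the receptors and ciliary genes the study discusses. Fos, Arc, Npas4, Nr4a1, Nr4a3 and other list members outside this rule were named after their values were seen. The comparison, the 44 gene lists and the tests were chosen with earlier results of these data known. Sums over a list add CPM of its tested members. With the replicate number as a check of pairing, deviations from group means correlated at 0.0952, 0.507 and 0.193 for numbers 1, 2 and 3, so the numbers were not taken to pair the libraries.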

Additional observations from a re-analysis of the deposited data

Results flagged for a closer look

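The effect of genotype on Prag1 in the hippocampus differed from its mean effect in the other regions, by 1.02 in log2 fold change (SE 0.15, adjusted p = 0.0490 over 17545 genes by edgeR). Prag1 was higher in 3 of 3 hippocampal KO libraries than in every hippocampal WT library, and the log2 fold changes were 1.15 in the hippocampus, -0.07 for the frontal cortex and 0.37 for the striatum. With DESeq2 size factors in edgeR the difference was 1.01 and the adjusted p 0.0583, and with lane as a covariate they were 0.95 and 0.158. Omission of single hippocampus libraries gave differences from 0.95 to 1.07 and adjusted p-values by edgeR of 0.0115 without KO replicate 3, 0.0255 without WT replicate 2, 0.0503 without WT replicate 1, and 0.171 to 0.191 without WT replicate 3, KO replicate 1 or KO replicate 2.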

How the results depend on the processing

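The number of genes called in the hippocampus was 3. It was 212 with DESeq2, 115 with the exact test of edgeR, 205 when all 18 libraries shared 1 estimate of the spread, and 160 when lane was added to that fit. It was 6 with Y-linked counts as a covariate, 1 with replicates 2 and 3 only, and 1736 at an unadjusted p under 0.05. Omission of single libraries gave 1 to 11 calls: 1 without WT replicate 1, WT replicate 2 or KO replicate 1, 2 without WT replicate 3, 3 without KO replicate 2 and 11 without KO replicate 3. With the replicate number as a replicate block, 9 genes were called, 3 of them shared with the fit without it, and 21 of 22 myelin genes were lower at an unadjusted p under 0.05 (11 without it). Over all genes the shares with this block were 7.43% higher and 8.25% lower. The replicate numbers did not pair the libraries, and WT replicates 1 and 3 correlated best with KO replicates 3 and 1 (0.221 and 0.231). The lane fit within the hippocampus, in which WT replicate 2 is alone in its lane and adds nothing to the genotype effect, called 2 genes, both lower in KO, and lost Prag1 and Cers6. A fit of WT replicate 2 alone against the KO libraries, added after seeing the data, called 2 genes with a spread taken from the KO libraries alone, and the thalamus and habenula covariate called 3. limma voom, DESeq2 size factors, no filter, filterByExpr, the choroid plexus covariate and an adjusted p under 0.1 gave 3 or 4 calls.

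Genes whose hippocampal effect differed from the other regions numbered 1. There were 50 with DESeq2, 23 with the replicate block, and 0 with DESeq2 size factors in edgeR, with lane as a covariate and against the striatum alone. Omission of single libraries gave 0 to 27, with 27 without WT replicate 2 and also without KO replicate 3, 2 without WT replicate 1, and 0 without any of the others. The causes of these differences were not tested.

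Pcm1 kept its call under all 21 alternatives, with log2 fold changes from -3.54 to -3.43. For other single genes, each compared once per alternative, 527 comparisons kept the result, 104 crossed the threshold, 17 lost it and 0 reversed. List medians moved by more than the spread between libraries in 90 of 924 comparisons. Groups of 3 libraries and uneven amounts of adjoining tissue limit what these values can separate.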
